A study of Mus musculus and Ictidomys tridecemlineatus with 36 samples.

Results

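Peaks of the mouse CUT&RUN lists were examined around 7 bipolar cell genes, *Vsx1*, *Bhlhe23*, *Lhx4*, *Prdm8*, *Grm6*, *Trpm1*, and *Cabp5*, of 21938 protein-coding genes in the annotation used. The genes were given by name. For each gene, peaks were taken within 1 kb of any annotated transcription start site (TSS) and in a window of the gene body plus 50 kb on each side, and all 7 genes were found. Positions are those of GRCm38, and distances are from the start of the gene in the direction of transcription, so that negative values lie upstream.

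In CUT&RUN, an antibody against a histone mark or a transcription factor guides a nuclease to the chromatin of permeable nuclei, and the DNA it sets free is sequenced. The 5 lists came from whole retina of postnatal day 2 (P2) mice, with no treatment or genetic change given in the labels, and each of the 2 biological replicates was made from the retinas of 3 individuals. The labels list 20 mouse libraries: 2 each for H3K4me3, H3K27ac, H3K4me1, and the IgG control, 4 for Neurod1, and 8 for Otx2, of which 4 used each of 2 antibodies. All libraries of a target were combined by the authors into 1 list, so each peak has 1 fold enrichment over IgG, no spread between replicates could be given, no difference was tested, and the depth of the libraries is unknown. Fold enrichment is not comparable between antibodies. In whole retina, a mark carried by fewer cells and a weaker mark in each cell cannot be told apart.

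Bipolar cells carry the signal of photoreceptors to the inner retina and are among the last retinal cell types to be born, around and after the stage sampled here. H3K4me3 marks promoters that are in use or ready for use, H3K27ac marks active promoters and enhancers, and H3K4me1 marks enhancers whether or not they are active. Otx2 is a homeodomain protein needed for photoreceptor and bipolar cell fates, and Neurod1 is a basic helix-loop-helix protein of photoreceptor precursors that binds E-boxes.

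Peaks at a TSS were counted for the 7 genes, too few for a close comparison with the shares of all protein-coding genes. An H3K4me3 peak lay within 1 kb of a TSS at 2 of the 7 genes, against 56.0% of all protein-coding genes, and an H3K27ac peak at none of the 7, against 22.6%. H3K4me1 lay at the TSS of 6 of the 7 genes, against 63.6%. Otx2 lay at the TSS of 3 of the 7 genes, against 51.0%, and Neurod1 at 1, against 5.76%. The 3 genes with Otx2 at a TSS were *Vsx1*, *Lhx4*, and *Prdm8*, all transcription factors. *Bhlhe23*, the remaining transcription factor, had no peak of any target at its TSS, and *Grm6*, *Trpm1*, and *Cabp5*, which encode the receptor, a channel, and a calcium-binding protein of the differentiated cell, had H3K4me1 as their only mark there. For *Grm6* and *Cabp5* that call was weak, with −log10 q-values of 3.96 and 4.87. With a −log10 q of 5 or more it was lost at both genes, and 4 of the 7 genes were left with H3K4me1 at a TSS. Of the whole H3K4me1 list, 67.0% of the peaks met that limit, and the share of all genes at that limit is not given here.

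The DNA under the Otx2 summits is shown for those peaks on which the description of *Vsx1*, *Lhx4*, *Prdm8*, *Trpm1*, and *Cabp5* turns. Each sequence is the 300 bases around the summit on the plus strand of GRCm38, written 5′ to 3′ and placed so that the summit is in the middle. Capitals mark TAATCC, the core sequence bound by Otx2 and its relatives, and CAGATG, an E-box bound by Neurod1, on either strand, so that GGATTA is TAATCC on the minus strand. They lie at chr2:150690153-150690452 (*Vsx1* upstream, before the TSS), chr2:150735972-150736271 (*Vsx1* distal, intergenic), chr1:155654776-155655075 (*Lhx4* distal, in an intron of *Acbd6*), chr5:98168734-98169033 (*Prdm8*, in its intron), chr7:64163703-64164002 (*Trpm1*, in its intron), and chr7:13431644-13431943 (*Cabp5* distal, intergenic).
Vsx1 upstream: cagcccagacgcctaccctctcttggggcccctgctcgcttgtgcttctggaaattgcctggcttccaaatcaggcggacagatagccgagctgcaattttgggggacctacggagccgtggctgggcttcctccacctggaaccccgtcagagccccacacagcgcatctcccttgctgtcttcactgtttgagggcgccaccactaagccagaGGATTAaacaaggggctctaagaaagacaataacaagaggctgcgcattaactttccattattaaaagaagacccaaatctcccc
Vsx1 distal: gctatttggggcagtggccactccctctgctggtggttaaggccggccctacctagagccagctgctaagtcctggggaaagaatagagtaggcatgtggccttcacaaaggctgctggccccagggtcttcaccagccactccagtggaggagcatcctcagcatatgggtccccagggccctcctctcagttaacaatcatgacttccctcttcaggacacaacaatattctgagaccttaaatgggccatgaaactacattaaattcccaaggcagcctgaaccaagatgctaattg
Lhx4 distal: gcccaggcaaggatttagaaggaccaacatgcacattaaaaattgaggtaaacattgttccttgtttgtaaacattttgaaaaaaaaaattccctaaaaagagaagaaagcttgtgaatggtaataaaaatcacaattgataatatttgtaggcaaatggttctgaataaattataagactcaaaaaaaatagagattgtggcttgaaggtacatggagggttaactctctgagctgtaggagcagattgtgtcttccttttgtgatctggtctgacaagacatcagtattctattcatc
Prdm8 intron: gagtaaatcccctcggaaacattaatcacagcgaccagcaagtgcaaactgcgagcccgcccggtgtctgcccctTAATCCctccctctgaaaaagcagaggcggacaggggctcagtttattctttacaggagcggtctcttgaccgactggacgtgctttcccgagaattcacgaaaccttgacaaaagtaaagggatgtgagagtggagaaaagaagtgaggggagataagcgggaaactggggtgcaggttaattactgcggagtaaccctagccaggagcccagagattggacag
Trpm1 intron: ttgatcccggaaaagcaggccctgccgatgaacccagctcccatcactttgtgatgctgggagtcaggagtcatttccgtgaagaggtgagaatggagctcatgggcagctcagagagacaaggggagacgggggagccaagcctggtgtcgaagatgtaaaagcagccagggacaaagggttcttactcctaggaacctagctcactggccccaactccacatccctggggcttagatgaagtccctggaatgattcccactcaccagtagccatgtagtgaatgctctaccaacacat
Cabp5 distal: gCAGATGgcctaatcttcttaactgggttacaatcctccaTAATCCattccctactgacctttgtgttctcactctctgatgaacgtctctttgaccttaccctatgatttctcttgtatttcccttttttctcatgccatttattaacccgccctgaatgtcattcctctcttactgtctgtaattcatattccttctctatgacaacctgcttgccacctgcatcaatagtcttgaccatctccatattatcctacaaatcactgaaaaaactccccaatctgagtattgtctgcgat
The *Vsx1* upstream, *Prdm8*, and *Cabp5* sequences each held 1 TAATCC, and the *Cabp5* sequence also held 1 CAGATG. The sequences of the strongest Otx2 peaks of the *Vsx1* and *Lhx4* windows and of the *Trpm1* intron held neither. The CAGATG shown for *Cabp5* lies outside the Neurod1 peak there, which ends before the printed stretch begins. Neurod1 peaks overlapped the *Lhx4*, *Trpm1*, and *Cabp5* peaks shown, with their own summits. Within 150 bp of each of those Neurod1 summits there was 1 CAGATG. The peaks shown were picked and do not stand for all 30 Otx2 peaks around the 7 genes. Of those, 6 held TAATCC within 150 bp of the summit (18.2% of the Otx2 list). A match is a description of the letters and not a binding site, and the lack of one says only that these letters are not in the window.

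**Figure D1:**
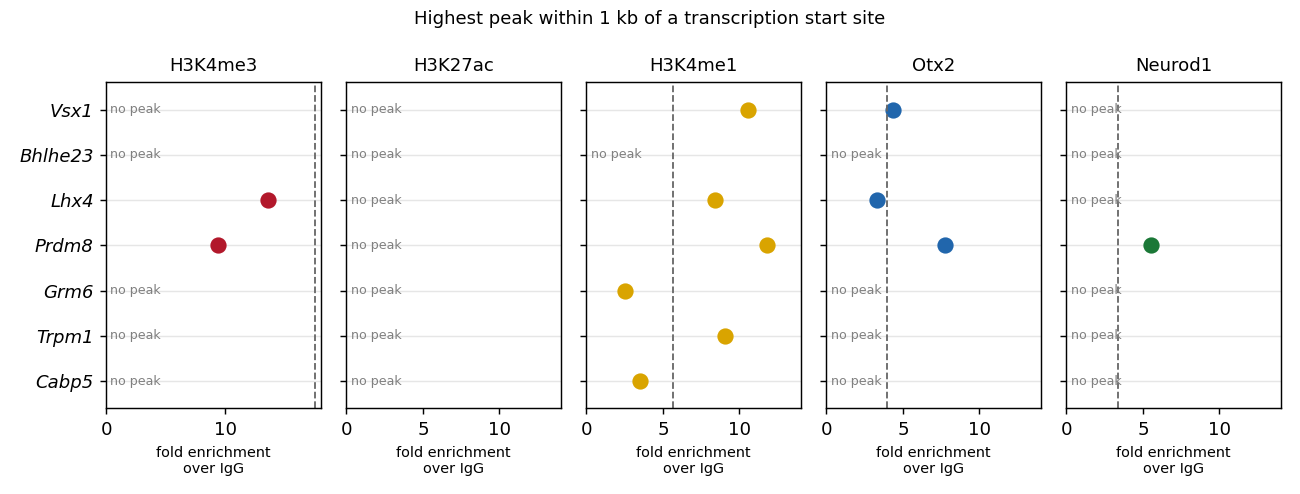
Fold enrichment over IgG of the highest peak within 1 kb of any TSS of each gene, one panel per target, with "no peak" where none was called. The dashed line is the median over all protein-coding genes with such a peak. The H3K27ac panel is empty, both H3K4me3 points lie below the line at 17.5, and 4 of the 6 H3K4me1 points lie above the line at 5.64.

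*Vsx1* (ENSMUSG00000033080.9, chr2:150680702-150689360, minus strand) encodes a homeodomain protein of cone bipolar cells and has 1 annotated TSS. Neither H3K4me3, H3K27ac, nor Neurod1 was called at that TSS. H3K4me1 was, at 10.56-fold over IgG, higher than in 85.1% of the genes with an H3K4me1 peak at a TSS. An Otx2 peak of 4.37-fold had its summit 943 bp upstream, and it is the one whose sequence shows the TAATCC. The pair H3K4me1 and Otx2 alone was found at the TSSs of 352 genes (1.6% of all), among which *Pcp2*, a rod bipolar marker, was the only gene of the bipolar lists described below.

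The *Vsx1* window of 108.7 kb held 8 H3K4me1 peaks, 4 Otx2 peaks, 1 H3K27ac peak, and no H3K4me3 or Neurod1 peak. The strongest of them lay together at -46.8 kb, in intergenic DNA. There the H3K4me1 peak reached 14.78-fold, the Otx2 peak 5.84-fold, and the H3K27ac peak 3.59-fold, and the 3 overlapped. This was the only H3K27ac peak of the window, and the nearest TSS was not that of *Vsx1* but that of *Entpd6*, 12920 bp from the Otx2 summit. The remaining Otx2 peaks, at -2.31 kb and at 14.3 kb, were weak, at 2.22-fold and 2.28-fold. The peak at 14.3 kb was the only one of the 30 Otx2 peaks around the 7 genes that overlapped no histone peak.

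*Bhlhe23* (ENSMUSG00000045493.4, chr2:180774381-180776900, minus strand) encodes a basic helix-loop-helix protein needed for rod bipolar cell maturation. It was the only member with no peak of any target within 1 kb of its TSS, as were 6876 genes in all (31.3%). Its window of 102.5 kb held 5 H3K4me1 peaks, all of which had *Bhlhe23* as the gene of the nearest TSS. The H3K4me1 peak of highest fold, 10.18-fold, lay at 12.0 kb, downstream of the gene, and another of 6.26-fold lay at -12.2 kb. The only Otx2 peak (3.22-fold) and the only H3K27ac peak (2.36-fold) of the window overlapped each other at -48.9 kb and -49.0 kb, on an H3K4me1 peak of 5.82-fold. This H3K27ac peak was weak, with only 2.89% of the peaks of its list below it in fold enrichment, and it lay close to the edge of the window.

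*Lhx4* (ENSMUSG00000026468.14, chr1:155698031-155751684, minus strand) encodes a LIM-homeodomain protein of bipolar cells and cone photoreceptors and has 2 annotated TSSs, which differed in their marks. The downstream TSS, 9.66 kb into the gene, carried H3K4me3 of 13.6-fold, H3K4me1 of 6.12-fold, and Otx2 of 3.3-fold. The upstream TSS carried H3K4me1 of 8.4-fold and Otx2 of 2.68-fold and had no H3K4me3 peak. The H3K4me3 fold enrichment was higher than in 37.1% of the genes with such a peak, whose median was 17.5-fold. The same combination of H3K4me3, H3K4me1, and Otx2 was found at 5286 genes (24.1%).

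The *Lhx4* window of 153.7 kb was the densest of the 7 for every target but H3K4me3. For H3K4me3 it had 1.3 peaks per 100 kb, against 2.6 for *Grm6* and 2.46 for *Prdm8*. It held 32 H3K4me1 peaks, which covered 37.7% of its bases, 12 Otx2 peaks, 7 Neurod1 peaks, 5 H3K27ac peaks, and 2 H3K4me3 peaks. Only 0.925% of all protein-coding genes had as many H3K4me1 peaks per 100 kb, 3.97% as many Otx2 peaks, and 0.583% as many Neurod1 peaks. Many of these peaks were nearest to the TSS of a neighbouring gene: 13 of the 32 H3K4me1, 4 of the 12 Otx2, 2 of the 7 Neurod1, and none of the 5 H3K27ac peaks had a TSS of *Lhx4* as the nearest. A further 4 H3K4me1 peaks had their summit in *Lhx4* but lay nearer to the TSS of *Acbd6*.

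Each of the 7 Neurod1 peaks of this window overlapped an Otx2 peak. In introns of *Acbd6*, the downstream neighbour, Otx2 reached 9.49-fold and Neurod1 3.98-fold at 96.8 kb and 96.7 kb, and both lay on an H3K4me1 peak that was 11845 bp wide. The Otx2 peak was higher than 96.9% of the peaks of its list. Pairs with lower Otx2 peaks in the same gene had 4.62-fold for Otx2 with 3.99-fold for Neurod1, and 4.03-fold with 3.15-fold. In the introns of *Lhx4* itself the pairs were 3.81-fold for Otx2 with 3.37-fold for Neurod1 at 29.9 kb and 30.5 kb, and 2.21-fold with 3.14-fold at 32.7 kb and 32.9 kb. All 5 of these pairs overlapped H3K4me1 without H3K27ac or H3K4me3.

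The 2 remaining pairs of the *Lhx4* window differed from these in carrying H3K27ac. They lay upstream in *Qsox1*, which encodes a sulfhydryl oxidase. At -26.0 kb, Otx2 reached 6.97-fold and Neurod1 2.81-fold on an H3K27ac peak of 4.24-fold, and at -38.8 kb and -38.7 kb, Otx2 reached 5.85-fold and Neurod1 4.83-fold on an H3K27ac peak of 5.67-fold. The other Otx2 peaks of the window in *Qsox1* were 2.79-fold at -25.0 kb, 3.22-fold at -33.1 kb, and 2.67-fold at -40.5 kb, and no Neurod1 peak overlapped them. The H3K27ac peak of 5.67-fold was the highest of the 14 around the 7 genes and higher than 93.6% of its list. That of 4.24-fold reached within 1 kb of a TSS of *Qsox1*.

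*Prdm8* (ENSMUSG00000035456.9, chr5:98167198-98188991, plus strand) encodes a PR-domain repressor needed for rod and OFF-cone bipolar cells, and it was the only member with Neurod1 at a TSS. Its 2 TSSs also differed in their marks. At the upstream TSS, Otx2 reached 7.75-fold, Neurod1 5.54-fold, and H3K4me1 11.8-fold, and no H3K4me3 peak lay within 1 kb. At the downstream TSS, 13.8 kb into the gene, H3K4me3 reached 9.36-fold and H3K4me1 11.21-fold, while the Otx2 peaks had 2.96-fold and 2.07-fold and the Neurod1 peak 2.8-fold. The Otx2 peak of the upstream TSS was higher than in 92.2% of the genes with Otx2 at a TSS, and the Neurod1 peak higher than in 85.9% of those with Neurod1.

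The strongest of the 30 Otx2 peaks lay in the first part of *Prdm8*, at 1.69 kb, with 11.88-fold, 2371 bp of width, and 98.6% of the Otx2 list below it. It is the one whose sequence shows a TAATCC, and it overlapped a small H3K4me3 peak of 4.08-fold. Further Otx2 peaks of 3.9-fold and 3.54-fold lay at 15.3 kb and 18.2 kb. The one at 18.2 kb overlapped a higher H3K4me3 peak, of 7.95-fold, with its summit at 18.9 kb in the coding sequence. No H3K27ac peak was called in the 121.8 kb window, and *Prdm8* was the only member without one. The 6 Otx2 and 8 H3K4me1 peaks all had *Prdm8* as the gene of the nearest TSS, and the H3K4me1 peak of highest fold, 15.13-fold, lay past its end at 22.2 kb. H3K4me3, H3K4me1, Otx2, and Neurod1 without H3K27ac were found at the TSSs of 391 genes (1.78%), among them *Bhlhe22*, a basic helix-loop-helix gene of amacrine and bipolar cells that *Prdm8* is known to work with.

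**Figure D2:**
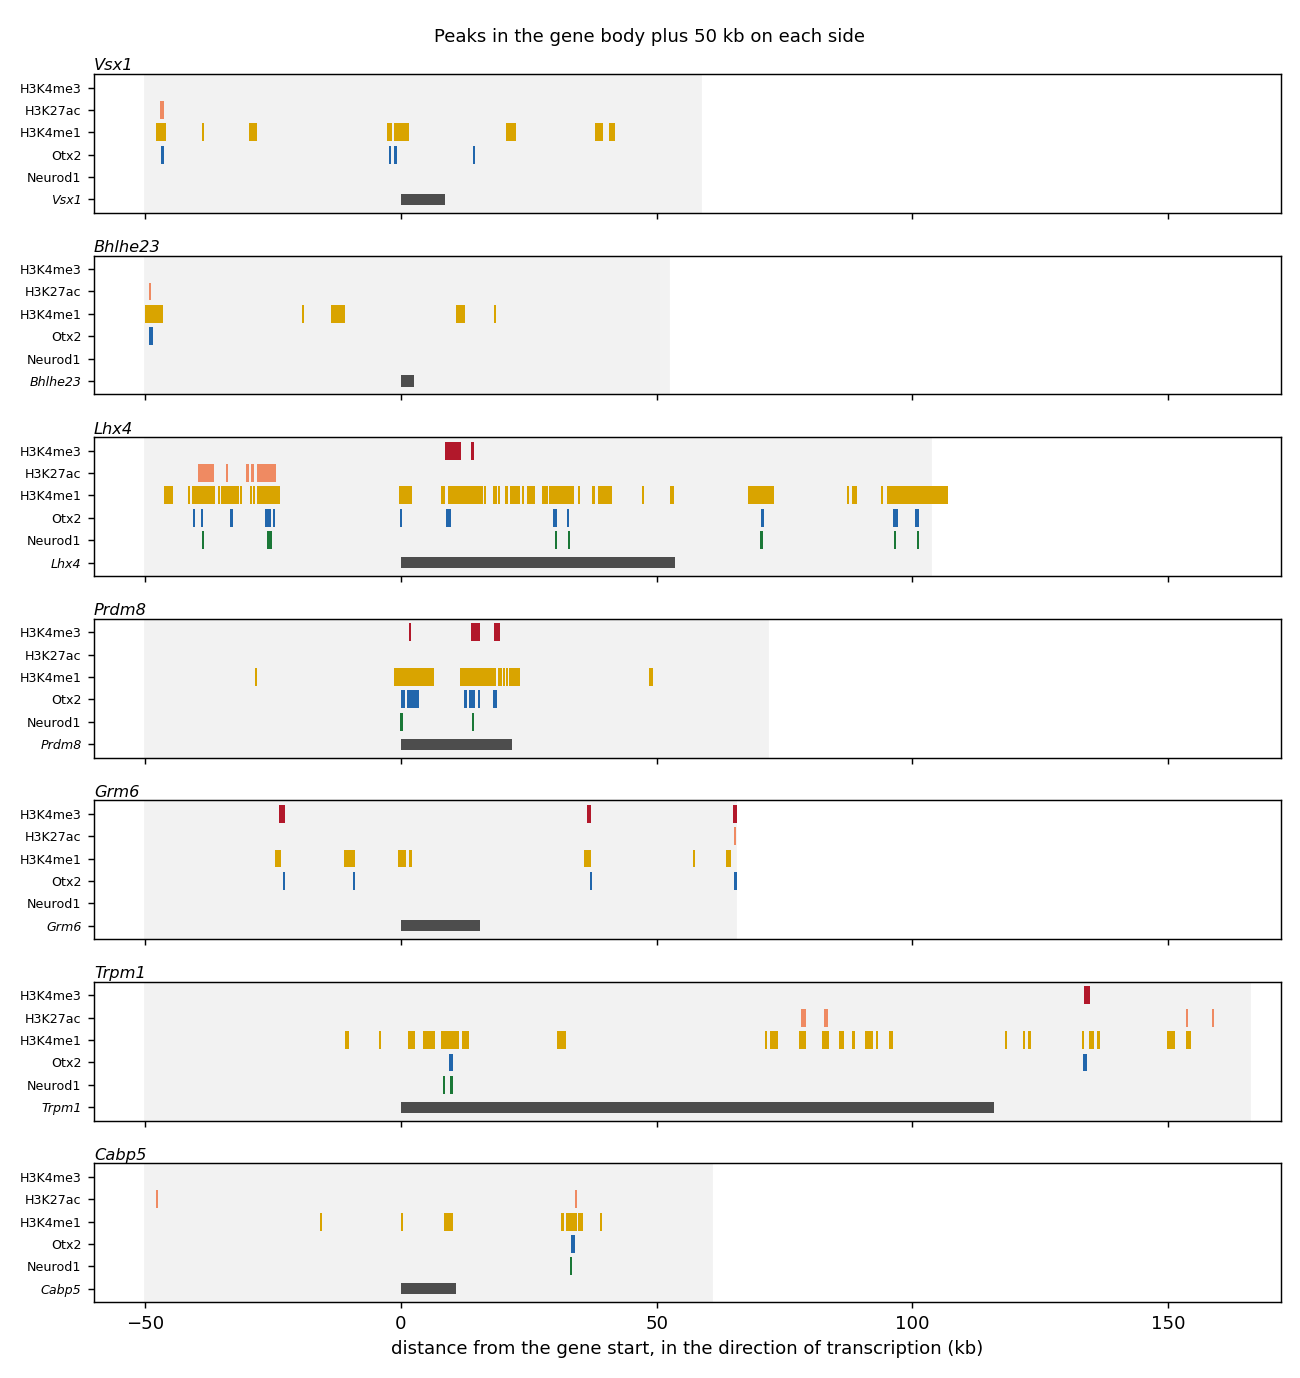
Peaks of the 5 lists in the gene body plus 50 kb of each gene (grey area), drawn by distance from the gene start in kb, with transcription to the right and the gene body as a dark bar. Peaks narrower than 0.4 kb are drawn at that width. *Lhx4* holds the most peaks, *Prdm8* has its Otx2 peaks inside the gene, and the H3K4me3 peaks around *Grm6* and *Trpm1* lie away from their gene bodies.

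*Grm6* (ENSMUSG00000000617.14, chr11:50850685-50866208, plus strand) encodes mGluR6, the glutamate receptor with which ON-bipolar cells sense photoreceptor release. Its TSS carried 1 weak H3K4me1 peak of 2.51-fold, and only 2.95% of the genes with H3K4me1 at a TSS had a lower one. One more H3K4me1 peak, of 3.5-fold, lay in its intron at 1.82 kb. The window of 115.5 kb held 3 H3K4me3 peaks, 1 H3K27ac peak, and 4 Otx2 peaks, and every one of these was within 1 kb of a TSS of a zinc finger gene, *Zfp354c*, *Zfp879*, *Zfp454*, or *Zfp2*. The H3K4me3 peaks at *Zfp354c* and *Zfp2* reached 19.67-fold and 19.09-fold. The Otx2 peaks at these promoters had 2.22-fold at *Zfp354c*, 3.59-fold at *Zfp879*, 3.71-fold at *Zfp454*, and 4.35-fold at *Zfp2*. No Neurod1 peak was called in the window. Apart from H3K4me1, *Grm6* therefore had no peak nearest to its own TSS.

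*Trpm1* (ENSMUSG00000030523.18, chr7:64153835-64269775, plus strand) encodes the cation channel that mGluR6 closes, and with 23 annotated transcripts and 20 TSSs it is the longest and most variably annotated of the 7 genes. H3K4me1 was called within 1 kb of 12 of the 20 TSSs, and no other target at any. The 3 most upstream TSSs were without a peak, and the H3K4me1 peak of highest fold at a TSS, 9.04-fold, lay at an internal cluster of starts at 31.5 kb. The others were of 3.31-fold at 73.5 kb, 5.58-fold at 91.4 kb, and 2.28-fold at 92.1 kb. The only H3K4me3 peak of the 215.9 kb window, of 12.87-fold, was at the TSS of *Mtmr10*, and so was 1 of its 2 Otx2 peaks (4.14-fold).

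The other Otx2 peak of the *Trpm1* window, of 4.48-fold, lay in an intron at 10.0 kb. A Neurod1 peak of 4.13-fold overlapped it at 9.93 kb, both on an H3K4me1 peak of 8.18-fold. A further Neurod1 peak of 3.25-fold at 8.45 kb was the only one of the 12 around the 7 genes that overlapped no Otx2 peak. Of the 4 H3K27ac peaks of the window, those at 154 kb (3.95-fold) and 159 kb (2.52-fold) lay in introns of *Mtmr10*. In *Trpm1* itself, H3K27ac was found elsewhere, in introns at 78.7 kb (4.3-fold) and at 82.8 kb (2.84-fold), and neither peak overlapped Otx2 or Neurod1. The H3K4me1 peak at the second of these, 11.09-fold, was the highest of the 25 in the window. Together with the peak at *Bhlhe23*, these were the 3 H3K27ac peaks, of 14, whose nearest TSS was that of a member.

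*Cabp5* (ENSMUSG00000005649.17, chr7:13398132-13408887, plus strand) encodes a calcium-binding protein of rod bipolar cells and some cone bipolar cells. Its TSSs carried H3K4me1 of 3.48-fold and nothing else. The window of 110.8 kb held 7 H3K4me1, 2 H3K27ac, 1 Otx2, and 1 Neurod1 peak and no H3K4me3. The Otx2 (3.49-fold) and Neurod1 (4.06-fold) peaks began at the same base, at chr7:13431330-13432124 and chr7:13431330-13431536, about 33 kb downstream of the gene start. An H3K27ac peak of 3.61-fold at chr7:13432126-13432470 lay directly beside the Otx2 peak without overlapping it, and an H3K4me1 peak of 4.66-fold spanned all 3. The nearest TSS to this element was that of *Bsph1*, 19047 bp from the Otx2 summit.

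Within the windows, at least 1 peak of H3K4me3 was found for 4 of the 7 genes (74.0% of all protein-coding genes), of H3K27ac for 6 (68.5%), of H3K4me1 for 7 (86.4%), of Otx2 for 7 (78.0%), and of Neurod1 for 4 (29.0%). Over the 7 windows there were 9 H3K4me3, 14 H3K27ac, 92 H3K4me1, 30 Otx2, and 12 Neurod1 peaks. The median density of the members was 0.463 H3K4me3 peaks per 100 kb against 0.99 for all genes, and 0.975 against 1.34 for H3K27ac. It was 6.57 against 6.04 for H3K4me1, 3.46 against 1.8 for Otx2, and 0.903 against 0.0 for Neurod1. Peaks at neighbouring genes count in these densities. The Otx2 median is that of *Grm6*, whose 4 Otx2 peaks were at zinc finger genes. The Neurod1 median is that of *Cabp5*, from 1 peak nearest to *Bsph1*, and the H3K4me3 median that of *Trpm1*, from 1 peak at *Mtmr10*. A peak nearest to its own TSS was found for 2 members with H3K4me3, 2 with H3K27ac, 7 with H3K4me1, 5 with Otx2, and 3 with Neurod1. Peak heights were near those of the whole lists except for H3K4me3, with medians of 9.36-fold against 13.5-fold for H3K4me3, 3.28 against 3.36 for H3K27ac, 4.47 against 4.25 for H3K4me1, 3.65 against 3.54 for Otx2, and 3.67 against 3.78 for Neurod1.

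**Figure D3:**
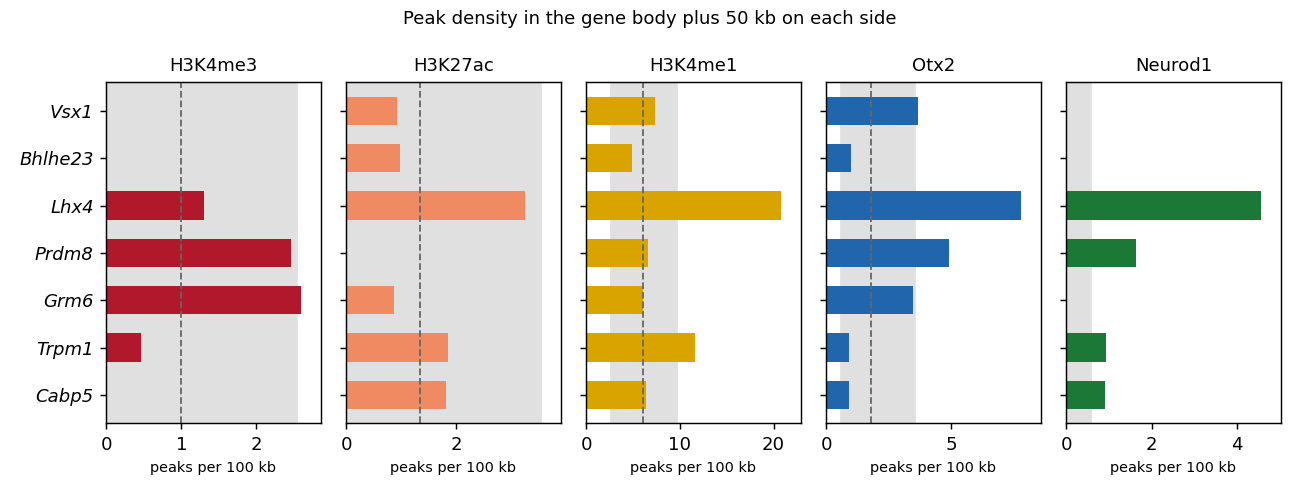
Peaks per 100 kb of window for each gene, one panel per target. The dashed line is the median over all protein-coding genes and the grey area the range from their lower to their upper quartile. *Lhx4* lies past the grey area for H3K4me1, Otx2, and Neurod1, with 20.8, 7.81, and 4.56 peaks per 100 kb, as do *Trpm1* for H3K4me1 and Neurod1, *Vsx1* for Otx2, *Prdm8* for Otx2 and Neurod1, *Cabp5* for Neurod1, and, narrowly, *Grm6* for H3K4me3.

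Most Neurod1 peaks around these genes lay on an Otx2 peak, and fewer of the Otx2 peaks lay on a Neurod1 peak. Of the 12 Neurod1 peaks, 11 overlapped an Otx2 peak, against 82.1% of the whole Neurod1 list, and of the 30 Otx2 peaks, 11 overlapped a Neurod1 peak, against 13.1% of the whole Otx2 list. Of these 11 shared places, 7 were in the *Lhx4* window, so that the count describes mainly 1 locus. The Neurod1 peaks lay in the windows of *Lhx4* (7), *Prdm8* (2), *Trpm1* (2), and *Cabp5* (1).

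The histone marks under the factor peaks were most often H3K4me1 alone. Of the 30 Otx2 peaks, 9 overlapped H3K4me3 (43.3% of the Otx2 list), 5 overlapped H3K27ac without H3K4me3 (22.6%), 15 overlapped H3K4me1 only (26.9%), and 1 overlapped none of the 3 (7.20%). Of the 12 Neurod1 peaks, 1 overlapped H3K4me3 (25.6% of the Neurod1 list), 2 overlapped H3K27ac without H3K4me3 (40.1%), 9 overlapped H3K4me1 only (28.7%), and none was free of the 3 (5.54%). For both factors, most of the peaks on H3K4me1 only were in the *Lhx4* window, so that these shares rest largely on 1 locus. Of the 9 Otx2 peaks on H3K4me3, those at *Grm6* and *Trpm1* were at promoters of other genes.

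**Figure D4:**
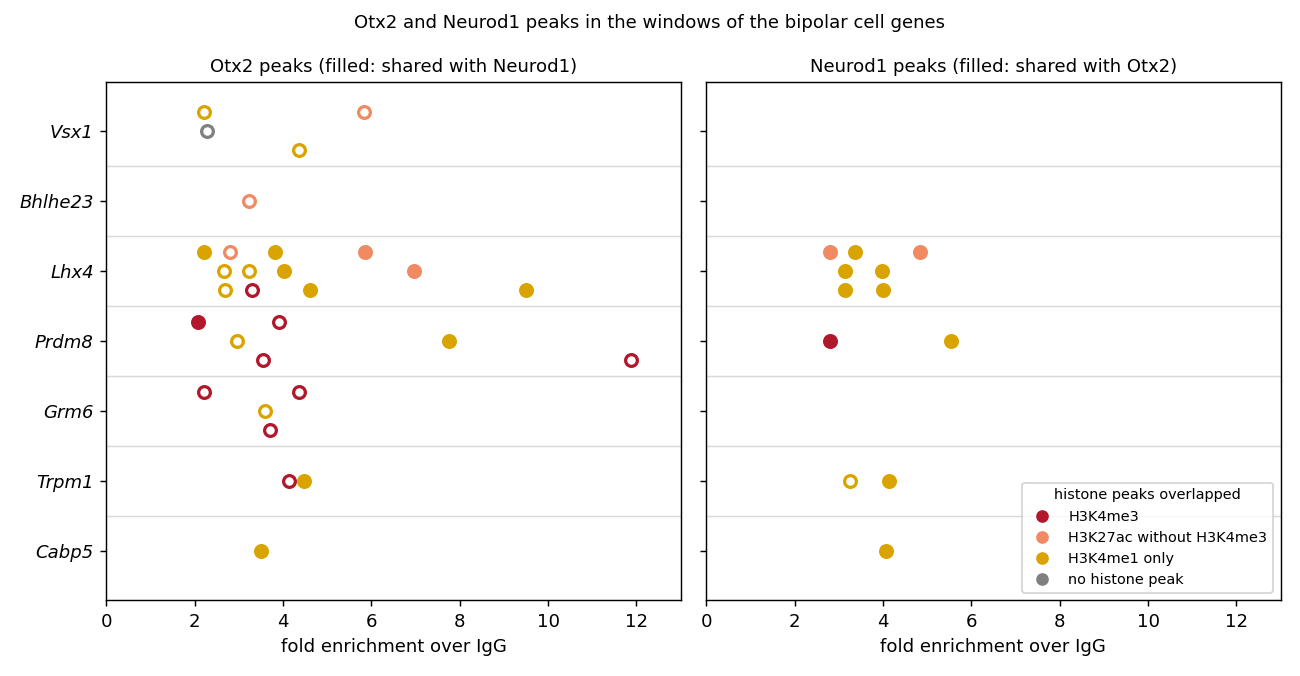
Fold enrichment over IgG of each Otx2 peak (left) and Neurod1 peak (right), by gene, with a small vertical offset for legibility. Colour gives the histone peaks overlapped, and filled points overlap a peak of the other factor. The highest Otx2 points are at *Prdm8* (11.88-fold) and *Lhx4* (9.49-fold), and all but 1 of the 12 Neurod1 points are filled.

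With names taken from the study, an H3K27ac peak without H3K4me3 was called an active enhancer, and an H3K4me1 peak with neither a poised one. The classes are not the same as in the study, which classed accessible elements and set a limit on their signal, while here the peaks themselves were classed with neither. There were 13 active enhancer peaks, 5 in the *Lhx4* window, 4 in that of *Trpm1*, 2 in that of *Cabp5*, and 1 each in those of *Vsx1* and *Bhlhe23*. Of the 5 in the *Lhx4* window, 3 reached within 1 kb of a TSS of *Qsox1*, so the class includes peaks beside a neighbour's promoter. Otx2 overlapped 4 of the 13, against 11.0% of all such peaks, and Neurod1 overlapped 2, both in the *Lhx4* window, against 3.2%. There were 73 poised enhancer peaks, of which 25 lay in the *Lhx4* window and 21 in that of *Trpm1*, and the 5 other windows held between 4 and 7 each. The class is not limited to distal DNA. It includes the H3K4me1 peaks described above at TSSs of *Vsx1*, *Grm6*, *Trpm1*, and *Cabp5* and at the upstream TSS of *Lhx4*. Otx2 overlapped 9 of the 73 poised peaks, against 6.98% of all such peaks, and Neurod1 overlapped 4, against 1.19%. Of these 4, 3 were in the *Lhx4* window and 1 in that of *Trpm1*.

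The DNA letters under the summits were compared with those of the whole lists. Within 150 bp of the summit, TAATCC was found in 6 of the 30 Otx2 windows (20.0%, against 18.2% of the Otx2 list) and CAGATG in 4 of the 12 Neurod1 windows (33.3%, against 52.1% of the Neurod1 list). TAATTA, a homeodomain core that shares TAAT with TAATCC, was in 2 of the 30 Otx2 windows (6.67%, against 7.7%). The general E-box CANNTG, of which CAGATG is a case, was in 11 of the 12 Neurod1 windows (91.7%, against 91.4%). Within 50 bp of the summit, none of the 30 Otx2 windows held TAATCC, against 2.4% of the list. All motifs were searched on both strands.

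In the 8 RefSeq promoters of the 7 genes (GRCm38.p6, from 250 bases before to 50 after the start), TAATCC was found in 2, those of *Cabp5* and of the upstream start of *Trpm1*, against 7.06% of 32851 promoters. Neither of these 2 promoters had an Otx2 peak within 1 kb of the TSS, and the RefSeq promoters of *Vsx1* and of the downstream starts of *Lhx4* and *Prdm8*, which did, held no copy of it. The upstream starts of *Lhx4* and *Prdm8* were not searched, and the TAATCC under the *Vsx1* Otx2 peak lies further upstream than its promoter window. The E-box CAGATG was found in 2 of the 8 (17.2% of all promoters), CANNTG in 6 (72.3%), and TAATTA in none (5.29%).

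Other genes of bipolar cells were counted in the same way. Of 33 further genes in 3 lists, 19 had H3K4me3 at a TSS, or 57.6% against 56.0% of all protein-coding genes. H3K27ac was at 10 (30.3% against 22.6%), H3K4me1 at 31 (93.9% against 63.6%), Otx2 at 18 (54.5% against 51.0%), and Neurod1 at 3 (9.09% against 5.76%). Of 11 transcription factors of bipolar cells, 9 had H3K4me3 (81.8%) and 5 had H3K27ac (45.5%). Among them, *Otx2* itself had H3K4me3 of 64.9-fold and H3K27ac of 4.75-fold. Of 10 genes that act with mGluR6, 6 had H3K4me3 (60.0%) and 4 had H3K27ac (40.0%). Among these, *Gnb3*, a G protein subunit shared with cones, had Otx2 of 26.23-fold and Neurod1 of 17.63-fold at a TSS. Of 12 further bipolar markers, 4 had H3K4me3 (33.3%) and 1, *Kcnip3*, had H3K27ac (8.33%).

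The H3K4me1-only state of *Grm6*, *Trpm1*, and *Cabp5* was found at 1920 genes (8.75%) and at 8 of the 33 further genes. These were *Gng13* and *Nyx* of the mGluR6 cascade, and *Cabp2*, *Car8*, *Scgn*, *Gabrr2*, *Grik1*, and *Tacr3*, which mark types of bipolar cell. The state of *Bhlhe23*, with no peak, was shared by 2 of the 33, *Sebox* and *Gabrr1*, against 31.3% of all protein-coding genes. That of *Lhx4* was shared by 9 of the 33, near the 24.1% of all protein-coding genes. These were *Isl1*, *Irx5*, *Irx6*, *Zfhx4*, *Gnao1*, *Rgs7*, *Rgs9bp*, *Prkca*, and *Neto1*. The similarity is in which of the 5 targets had a peak and not in its height.

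**Figure D5:**
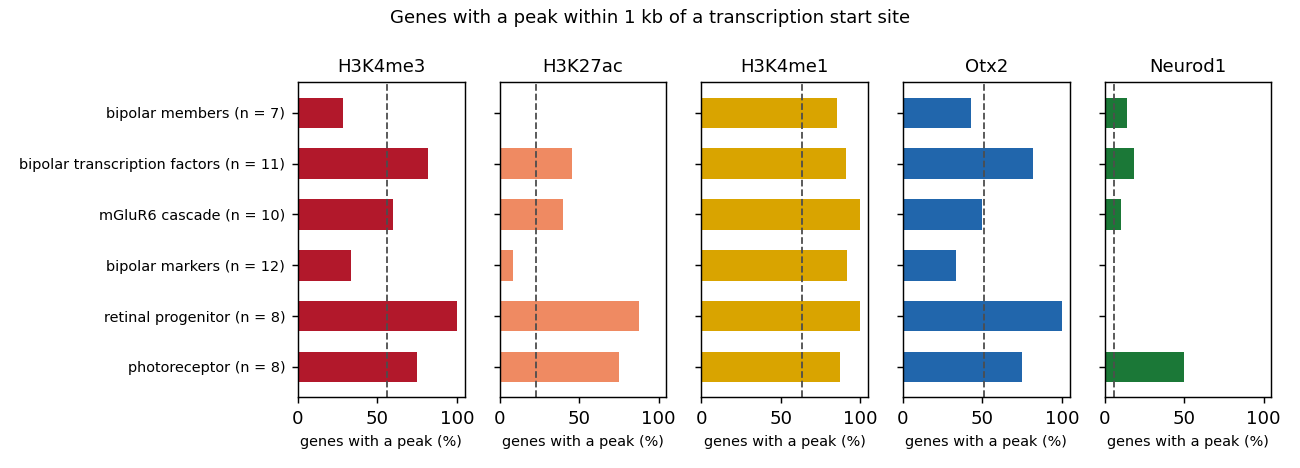
Share of genes with a peak within 1 kb of a TSS, in percent, for the 7 genes and for lists of bipolar transcription factors, genes that act with mGluR6, other bipolar markers, and, for the tissue, progenitor and photoreceptor genes, with the number of genes in each. The dashed line is the share of all protein-coding genes. The H3K27ac bar of the 7 genes is at 0, and 7 of the 8 progenitor genes had such a peak.

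The tissue was checked with marker genes. Of all protein-coding genes, 56.0% had H3K4me3 and 22.6% had H3K27ac at a TSS. H3K4me3 lay at a TSS of 8 of 8 progenitor genes, 6 of 8 photoreceptor genes, 8 of 8 amacrine, horizontal, and ganglion cell genes, and 4 of 5 Müller glia genes, and at 1 of 5 pigment epithelium genes, 0 of 6 vessel and blood genes, and 0 of 6 genes of tissues outside the eye. H3K27ac lay at 7 of 8 progenitor, 6 of 8 photoreceptor, 1 of 8 amacrine, horizontal, and ganglion cell, and 4 of 5 Müller glia genes. *Isl1* stands both in this list and among the bipolar transcription factors. Which cells of the retina carried the peaks around the 7 genes was not tested.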

How the data were processed

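Peak lists of CUT&RUN from P2 mouse retina were used for H3K4me3, H3K27ac, H3K4me1, Otx2, and Neurod1. Per the labels and methods, the authors trimmed reads (cutadapt 3.5, Trim Galore 0.6.4), aligned them to GRCm38 with Bowtie2, filtered them with SAMtools 1.12, removed duplicates, and called peaks with macs2 against IgG jointly over the libraries of a target, leaving out blacklisted and mitochondrial regions. The fold enrichment of a peak is a ratio to IgG as deposited by the authors, and its deposited significance is a −log10 q-value, both used unchanged. Otx2 combines libraries of 2 antibodies. Depth is unknown. The 13LGS lists and other marks were not used here.

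Genes and TSSs came from GENCODE M21, protein-coding genes on chromosomes only, and an overlap meant at least 1 bp shared. The 50 kb were taken on each side. Overlaps were computed with pandas 2.3.3 and numpy 2.4.6 under Python 3.11.15, and the code was tested on simulated intervals against bedtools 2.31.1, with 0 differences. Plots used matplotlib 3.10.9. A motif window ran 150 bp to each side of the summit. Sequences were read from GRCm38, and promoters from RefSeq. All 7 genes are described with their TSS peaks, their Otx2 and Neurod1 peaks, and most of their strongest histone peaks away from a TSS. Other bipolar genes are counted by list and named where their state equals a member's, and *Otx2*, *Gnb3*, and *Kcnip3* were named after their values were seen. The members and lists were chosen with earlier results of these data known. No test was run, because each list holds 1 pooled value per peak. Alternatives were stricter peaks, other overlaps and windows, coding TSSs, merged peaks, assignment to the nearest TSS, and a narrower motif window.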

Additional observations from a re-analysis of the deposited data

How the results depend on the processing

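The numbers of genes with a peak at a TSS stayed within 1.5 times under all 25 alternatives tried for them, at the limit with H3K4me1, which fell from 6 to 4 genes at a −log10 q of 5 or more, where *Grm6* and *Cabp5* lost it (the alternatives were that limit, an overlap of 250 bp, summits only, coding TSSs, 2 kb). Window counts fell with a narrower window. With 10 kb in place of 50 kb on each side, the peaks numbered 5 for H3K4me3, 2 for H3K27ac, 50 for H3K4me1, 15 for Otx2, and 6 for Neurod1, with 2 active and 43 poised enhancers and 5 Otx2 peaks shared with Neurod1. With only peaks nearest to a member's TSS, they numbered 5, 3, 51, 14, and 6, with 3 active and 43 poised enhancers and 5 shared Otx2 peaks. With a −log10 q of 5 or more, 5 of the 14 H3K27ac peaks and 5 of the 13 active enhancers were left. That limit was met by 32.6% of the whole H3K27ac list and 67.0% of the H3K4me1 list. Within 50 bp of the summit, TAATCC was in 0.0% of Otx2 windows (2.4% of the Otx2 list). CAGATG was in 8.33% of Neurod1 windows there (9.42% of the Neurod1 list). Of 64 alternatives, 44 moved a value by no more than 1.5 times. No replicate could be left out. No paired analysis was possible because each list pools its libraries. Without read depth, a missing peak says only that none was called.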
